A study of Mus musculus with 5 samples.

Results

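The distal upstream region of the Pik3r1 bait comprises the DpnII restriction fragments whose deposited positions lie between 102266366 and 102732485 on chromosome 13 (mm10). It starts 500 kb from the bait at 101766365 and ends 966 kb from it, on the side away from the Pik3r1 gene body, where the span of Mast4 begins. The region was chosen by position alone, with no use of read counts, and holds 1203 of the 292200 chromosome 13 fragments. The libraries are 4C-seq libraries, in which crosslinked DNA is cut and religated and the partners of 1 bait fragment are amplified and sequenced, so that reads on a distant fragment record contact with the bait. Mice were of strain C57/Bl6. One library came from wild-type CD4+/CD8+ double-positive (DP) thymocytes sorted from thymus at 4 weeks of age, 2 from wild-type (WT) skeletal muscle and 2 from GRko skeletal muscle at 10 to 12 weeks. The labels give the GRko genotype as KO, taken here to mean loss of the glucocorticoid receptor, as the study is known to concern it, and name neither the allele nor the cells in which it is lost. The receptor gene is on another chromosome, and DNA contact counts contain no expression markers, so neither the genotype nor the purity of the nuclei was checked by these data. Muscle nuclei come from a whole tissue of several cell types, so a contact made in fewer cells and a weaker contact in all cells cannot be told apart. The labels do not say whether the replicates came from separate animals, and p-values between them may therefore measure technical spread.

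The product of Pik3r1, p85α, is a regulatory subunit of phosphoinositide 3-kinase, an enzyme that carries signals from insulin and other growth factor receptors. The glucocorticoid receptor is a ligand-activated transcription factor that acts on metabolism in muscle and drives apoptosis in immature thymocytes. Contact frequency along a chromosome usually falls with distance, and gene deserts next to regulated genes often hold distal enhancers that touch a promoter in a tissue-dependent way. Cd180, the protein-coding gene of the region, encodes a leucine-rich repeat receptor related to Toll-like receptors and is known from B cells. Mast4, at the far edge, encodes a microtubule-associated serine/threonine kinase and is read towards the region, so its 3′ end and not its promoter adjoins it.

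In RefSeq coordinates of the GRCm38.p6 assembly, identical to those of mm10, 9 genes overlapped the region. They were Cd180, the long noncoding RNAs Gm46397, Gm36703, Gm36921, Gm41045, Gm29870, Gm29927 and Gm41046, and the pseudogene Gm47014. They covered 20.04% of its bases and 17.8% of its fragments, and the rest was intergenic. Promoters of 7 of the 9 genes were in the RefSeq promoter table, which runs from 250 bases before to 50 after a start site. Those of Cd180, of the neighbouring pair Gm36703 and Gm46397 and of Gm41046 are shown because these genes lie at the places described below. The starts of the printed Gm36703 and Gm46397 promoters are 162 bp apart on opposite strands. Gm46397 has another listed start at 102351840, and the span of Gm36703 begins at 102349710. Starts named below are those of the printed promoters. Capitals mark GATC, the DpnII site that sets the ends of the fragments counted in 4C-seq. The Cd180 promoter is chr13:102693297-102693596 on the plus strand, Gm36703 is chr13:102351103-102351402 on the plus strand, Gm46397 is chr13:102351466-102351765 on the minus strand and Gm41046 is chr13:102665952-102666251 on the minus strand, each written 5′ to 3′ along the gene.
Cd180: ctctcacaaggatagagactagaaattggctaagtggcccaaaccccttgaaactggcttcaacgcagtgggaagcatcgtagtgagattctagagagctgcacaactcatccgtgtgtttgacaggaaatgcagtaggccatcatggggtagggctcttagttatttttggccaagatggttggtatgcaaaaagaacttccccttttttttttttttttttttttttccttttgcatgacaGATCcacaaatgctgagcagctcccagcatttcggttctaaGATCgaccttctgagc
Gm36703: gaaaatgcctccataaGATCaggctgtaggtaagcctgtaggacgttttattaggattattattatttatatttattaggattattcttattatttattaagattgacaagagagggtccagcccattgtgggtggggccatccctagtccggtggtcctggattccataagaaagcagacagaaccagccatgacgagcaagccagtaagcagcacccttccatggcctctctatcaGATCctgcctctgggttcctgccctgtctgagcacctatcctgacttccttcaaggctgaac
Gm46397: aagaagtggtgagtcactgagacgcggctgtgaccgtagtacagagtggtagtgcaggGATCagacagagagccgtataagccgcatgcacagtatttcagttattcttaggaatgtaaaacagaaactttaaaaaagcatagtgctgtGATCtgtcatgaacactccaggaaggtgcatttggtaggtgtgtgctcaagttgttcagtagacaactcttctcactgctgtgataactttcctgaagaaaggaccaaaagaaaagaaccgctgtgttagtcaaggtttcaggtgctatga
Gm41046: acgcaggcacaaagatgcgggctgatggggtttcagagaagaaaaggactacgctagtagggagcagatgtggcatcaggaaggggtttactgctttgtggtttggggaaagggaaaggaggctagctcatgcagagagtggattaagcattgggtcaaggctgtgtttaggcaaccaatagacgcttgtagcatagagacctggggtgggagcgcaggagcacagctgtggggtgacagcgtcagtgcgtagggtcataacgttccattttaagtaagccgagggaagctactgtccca

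These letters set what 4C-seq can see at each start. The Cd180 start site at 102693547, 927 kb from the bait, lies between 2 GATC sites, in a fragment of 41 bp (102693540 to 102693581). The whole fragment in the Gm36703 window was 222 bp long and that in the Gm46397 window 91 bp, while the Gm41046 window holds no GATC. Neither of these fragments holds a start site. The Gm36703 start at 102351353 and the Gm46397 start at 102351515 lie between them, in the fragment at 102351477. GATC was found in 48.0% of all 32851 promoters of the same length and GTAC, the Csp6I site, in 35.8%. The palindromic glucocorticoid response element, searched as the hexamers AGAACA and TGTTCT set 3 bases apart, was in none of the 9 promoter entries of the region and in 0.00913% of all promoters. Either hexamer, each the reverse complement of the other so that both strands were read, was in 1 of the 9 entries, that of Gm29870, and in 19.0% of all promoters. These are matches of letters in 300 bases and say nothing about binding of the receptor.

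Reads on chromosome 13 ranged from 1317351 in GRko muscle replicate 2 to 8993436 in DP thymocytes. Within 1.5 Mb of the bait, without the nearest 10 kb, the libraries held 634064 to 4902222 reads on 7284 fragments. Shares below are of this window unless stated otherwise. A fragment with at least 1 read is called covered. Read length after removal of the bait sequence was 29 nt in DP thymocytes and in replicate 1 of both muscle genotypes and 23 nt in replicate 2 of both. The 23 nt libraries were also the shallower of each genotype, so read length and depth cannot be told apart.

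The region drew a larger share of the reads in each muscle library than in DP thymocytes. It took 10.9% of window reads in thymocytes, 21.8% and 25.04% in replicates 1 and 2 of wild-type muscle (the WT pair, always in this order), and 20.4% and 19.6% in replicates 1 and 2 of GRko muscle (the GRko pair). The thymocyte value lay below all 4 muscle values, and the GRko values lay below both WT values. The thymocyte share differed from the WT mean of 23.4% ± 2.27 (SD, n = 2) by -12.5 percentage points. The exact two-sided permutation test of the thymocyte library against the 4 muscle libraries gave p = 0.2, the smallest that 1 against 4 allows. The GRko mean of 19.99% ± 0.585 (SD, n = 2) differed from WT by -3.44 points, with an exact two-sided permutation p = 0.333, the smallest that 2 against 2 allows. The difference between genotypes was -1.43 points in the 29 nt pair and -5.46 points in the 23 nt pair. With all of chromosome 13 as denominator the 29 nt pair turned to 0.407 points, and the genotypes overlapped. Neither comparison can pass a threshold of 0.05 at these sample numbers.

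Counting each covered fragment once removes the weight of fragments with very many reads. Covered fragments in the region numbered 698 in thymocytes, 681 and 396 in the WT pair and 507 and 245 in the GRko pair. They made up 16.7% of all covered window fragments in DP thymocytes (95% Wilson interval 15.6 to 17.9%, counting error only), 22.0% and 24.4% in the WT pair and 23.0% and 23.1% in the GRko pair. The thymocyte library was again below all 4 muscle libraries, while the genotypes overlapped. A library that covered every fragment would have 1203 of 7284 in the region, whatever its contacts. Thymocytes covered 57.3% of the window's fragments and the muscle libraries 14.6 to 42.6%. Shares of covered fragments thus depend on how much of the window is covered. The same limit applies to the bins and tests of covered fragments below, unless fragment numbers were made equal. The thymocyte share differed from the WT mean by -6.43 points (permutation p = 0.2, exact), and the GRko mean by -0.130 points (permutation p = 1, exact). When the 1062 fragments of most reads were taken from every library, 140 lay in the region in DP thymocytes against 258 and 261 in the WT pair and 238 and 245 in the GRko pair. The number of fragments is then equal in all 5 libraries, though the fewest reads of a fragment kept ran from 1 in GRko replicate 2 to 1195 in thymocytes. The thymocyte share of 13.2% remained below the muscle range of 22.4 to 24.6%.

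**Figure D1:**
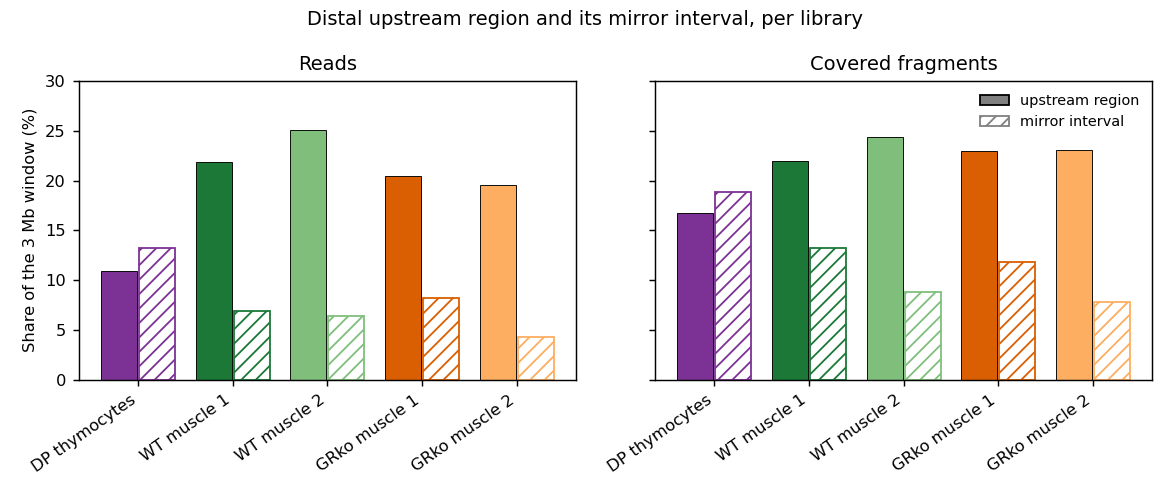
Share of the reads (left) and of the covered fragments (right) of the 3 Mb window, in percent, that fell in the distal upstream region (filled bars) and in the interval at the same distances on the other side of the bait (hatched bars), 1 bar per library. In muscle the filled bars for reads reach 19.6 to 25.04% and stand above the hatched ones, while in DP thymocytes the filled bar stands at 10.9% and the hatched one at 13.2%.

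The interval at the same 500 to 966 kb on the other side of the bait (100800245 to 101266364, 1104 fragments) served as a comparison at equal distance. It took 13.2% of window reads in thymocytes, 6.86% and 6.41% in the WT pair and 8.16% and 4.25% in the GRko pair. Reads per fragment in the region over those in this interval were 0.758 in thymocytes, 2.92 and 3.59 in the WT pair and 2.30 and 4.23 in the GRko pair. All 4 muscle libraries thus had more reads per fragment upstream, and the thymocyte library had fewer. On the log2 scale the ratio averaged 1.67 ± 0.381 (SD, n = 4) in muscle, with an exact sign-flip permutation p = 0.125, the smallest that 4 libraries allow, and was -0.40 in thymocytes. Over all 5 libraries the mean was 1.25 (exact sign-flip p = 0.125). By covered fragments the log2 ratio was -0.30 in thymocytes and between 0.61 and 1.44 in muscle. In thymocytes 71.4% of the fragments in the comparison interval were covered, more than the 58.0% covered in the region. The muscle libraries covered 20.4 to 56.6% of the region's fragments and 7.52 to 37.1% of those in the comparison interval. The genotypes overlapped in the log2 read ratio, which was 1.69 ± 0.209 (SD, n = 2) in WT and 1.64 ± 0.624 (SD, n = 2) in GRko (exact permutation p = 1).

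Along the higher-coordinate side, coverage of fragments fell stepwise with distance in each library. Between 10 and 500 kb 78.2% of fragments were covered in DP thymocytes and 32.2 to 75% in muscle. Beyond the region, in the part of the window that lies in the Mast4 span, coverage was 34.4% in thymocytes and 7.40 to 31.7% in muscle. The region lay between these values in every library. Its share of the window reads on its own side of the bait was 23.5% in thymocytes and 29.6 to 35.5% in muscle.

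Within the region, reads in DP thymocytes were concentrated near its far end. A 40 kb segment from 102640001 to 102680000, 874 to 914 kb from the bait, was picked as the 4 adjoining 10 kb bins with most thymocyte reads, so its thymocyte level is a description. The muscle libraries took no part in that choice. The segment holds 95 fragments, 7.90% of those in the region, and the gene Gm41046. It took 25.5% of the region's reads in thymocytes, 11.7% and 17.9% in the WT pair and 14.9% and 17.5% in the GRko pair. In all 4 muscle libraries reads per fragment there were 1.48 to 2.27 times the region's mean, against 3.22 times in thymocytes. As a share of window reads the segment took 2.78% in thymocytes and 2.55 to 4.49% in muscle, so the thymocyte value fell inside the muscle range. The rest of the region took 8.15% of window reads in thymocytes and 16.2 to 20.5% in muscle, with no overlap, although leaving out the thymocyte maximum lowers the thymocyte value by construction. Fragments of the segment were covered at 88.4% in thymocytes, 74.7% and 53.7% in the WT pair and 62.1% and 34.7% in the GRko pair.

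**Figure D2:**
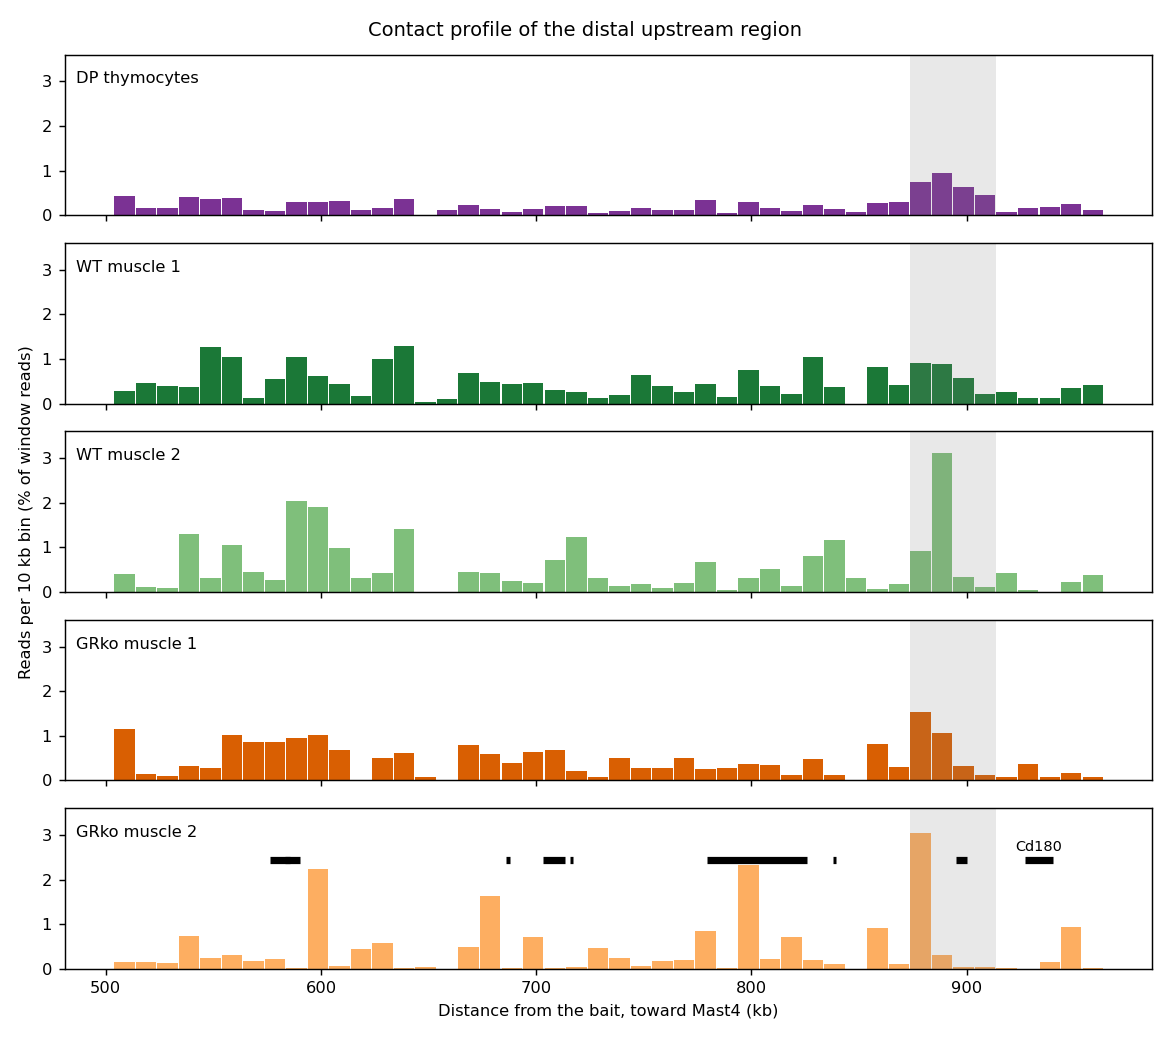
Reads per 10 kb bin as a percent of the reads in the window, against distance from the bait in kb, 1 panel per library. Grey shading marks the 40 kb segment at 874 to 914 kb, and black bars in the last panel mark the 9 annotated genes. The thymocyte profile stays below 1% and peaks in the shaded segment, while the muscle profiles have further peaks nearer the bait and the 23 nt libraries rise above 3% in single bins.

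The region held 46 bins of 10 kb, with 14 to 44 fragments each. The median bin took 0.163% of window reads in thymocytes, 0.405% and 0.315% in the WT pair and 0.343% and 0.173% in the GRko pair. The 5 bins with the highest mean share over the libraries began at 102640001, 102650001, 102360001, 102350001 and 102560001. The bin at 102640001 took 0.741% in thymocytes, 0.901% and 0.919% in the WT pair and 1.53% and 3.04% in the GRko pair. The GRko values lay above the WT values there, and the thymocyte value was the lowest. All 25 fragments of this intergenic bin were covered in thymocytes, and 96.0%, 68.0%, 84.0% and 52.0% in WT replicates 1 and 2 and GRko replicates 1 and 2. The next bin, 102650001, took 0.944% in thymocytes, 0.882% and 3.13% in the WT pair and 1.06% and 0.303% in the GRko pair. Its groups overlapped, and the highest and lowest of its values were both from 23 nt libraries.

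Nearer the bait, the bins at 102350001 and 102360001 held the starts of Gm46397 and Gm36703 and the DNA next to them. The bin at 102350001 took 0.302% in thymocytes, 1.03% and 2.04% in the WT pair and 0.952% and 0.0120% in the GRko pair. The bin at 102360001, which has no gene, took 0.295% in thymocytes, 0.608% and 1.89% in the WT pair and 1.02% and 2.24% in the GRko pair. Thymocytes were lower than WT muscle in both bins, and GRko replicate 2 was lowest in the first and highest in the second. The bin at 102560001, inside Gm29927, reached 2.33% in GRko replicate 2 and 0.283 to 0.743% in the other libraries. One fragment there, at 102567154, held 11612 reads in GRko replicate 2, 3115 in WT replicate 1, 8 in thymocytes and 0 in WT replicate 2 and GRko replicate 1.

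Against the level expected from distance on the same side of the bait (a non-increasing fit per library), the bin at 102640001 was the single bin of the region at 2 times or more in all 5 libraries. Its observed over expected ratio was 4.01 in thymocytes, 2.29 and 2.18 in the WT pair and 4.50 and 8.96 in the GRko pair. Over the 150 bins of that side, 0.667% met this criterion in all 5 libraries. In DP thymocytes 8 of 46 bins were at 2 times or more (12% of the side's bins), in both WT libraries 4 (3.33%) and in both GRko libraries 3 (3.33%). Single muscle libraries had 7 to 12 such bins. The thymocyte bins included the 4 of the 40 kb segment, with ratios of 4.01, 4.41, 4.56 and 2.82. In the bin at 102660001, which holds Gm41046, the ratio was 4.56 in thymocytes, 1.88 and 1.07 in the WT pair and 1.28 and 0.170 in the GRko pair, with no overlap between thymocytes and muscle. The bin belongs to the segment picked on thymocyte reads. By share of window reads the gap was narrower, with 0.640% in thymocytes, 0.563% and 0.343% in the WT pair and 0.331% and 0.0437% in the GRko pair. At 102320001 the ratio was 2.44 in thymocytes, 2.62 and 3.34 in the WT pair and 3.64 and 0.899 in the GRko pair. These ratios are a description with no test.

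The bin at 102410001 was low in all libraries. It took 0.000122% of window reads in thymocytes, 0.0297% and 0.00434% in the WT pair and 0.0836% and 0.0326% in the GRko pair. The longest run of fragments without a read in any library comprised 51 fragments between 102414464 and 102427651, a span of 13187 bp. Fragment midpoints there are closely spaced, and closely spaced fragments were covered less often across the region. Sorted by local spacing, 60.5% of the fragments in the lowest quartile had no read in any library, against 30.4%, 16.3% and 7.28% in the following quartiles. Median spacing was 185.5 bp around fragments never covered, 390 bp around covered ones and 571 bp around those covered in all 5 libraries. The relation ran the same way in each library, from 26.6% to 81.5% covered in DP thymocytes and from 7.64% to 33.4% in GRko replicate 2.

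**Figure D3:**
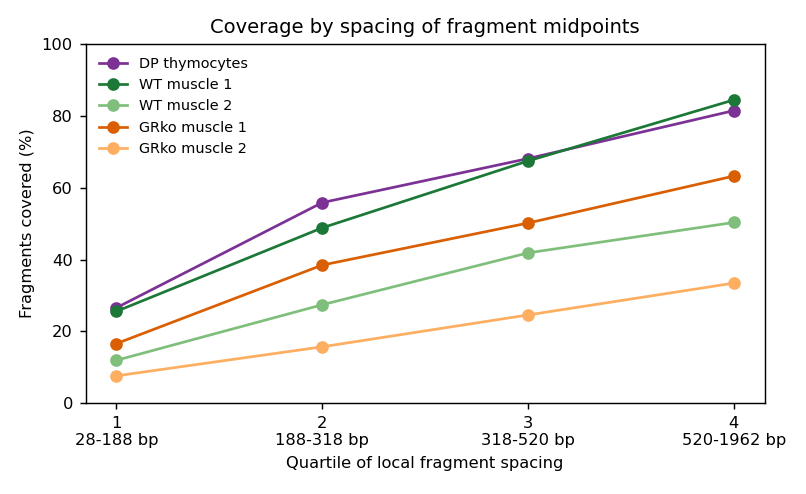
Percent of the region's fragments with at least 1 read, against 4 classes of local fragment spacing (bp, ranges under the axis), 1 line per library. Coverage rises with spacing in all 5 libraries, from 7.64 to 26.6% in the closest class to 33.4 to 84.4% in the widest.

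Most fragments of the region were covered in more than 1 library. Of its 1203 fragments 28.6% were covered in no library, 9.98% in 1 and 7.23% in all 5, against 31.6%, 20.8% and 5.82% of the window's fragments. Of the fragments covered in a muscle library, 82.04 to 84.02% were also covered in DP thymocytes, which covered 58.0% of all fragments of the region. Overlap with WT replicate 1 was similar, at 82.6% for WT replicate 2 and 83.2% and 84.1% for the GRko pair. All libraries share the fragment spacing, so these overlaps are descriptions and not evidence of shared contacts. DP thymocytes covered 56 fragments that no muscle library covered, 4.66% of the region's fragments against 13.3% over the window. Another 11 were covered in all 4 muscle libraries and not in thymocytes, 0.914% against 0.233%. Both WT libraries covered 72 fragments that neither GRko library covered (5.99%, against 3.42% over the window), while 5 were covered in both GRko and in no WT library (0.416%, against 0.673%). The GRko libraries were shallower in each read length pair, and at unequal depth such counts do not compare the genotypes. The 10 kb bins were alike in coverage across libraries, with Pearson correlations of the percent of fragments covered between 0.62 and 0.86 over the 46 bins. For the log2 share of reads the correlations were lower, from 0.24 to 0.67. The bins share fragment spacing, so these correlations are descriptions.

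The reads of the region rested on few fragments in the shallower libraries. The median covered fragment had 195.5 reads in thymocytes, 173 and 52.5 in the WT pair and 93 and 23 in the GRko pair. The 10 fragments of most reads held 13.6% of the region's reads in thymocytes, 14.8% and 35.5% in the WT pair and 24.9% and 56.4% in the GRko pair. It took 62 fragments to reach 50% of the region's reads in thymocytes, 63 and 19 in the WT pair and 31 and 9 in the GRko pair. Both 23 nt libraries were thus more concentrated than the 29 nt library of the same genotype. The reads carry no molecular identifiers, so copies made in amplification count as reads and intervals cover counting error only.

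**Figure D4:**
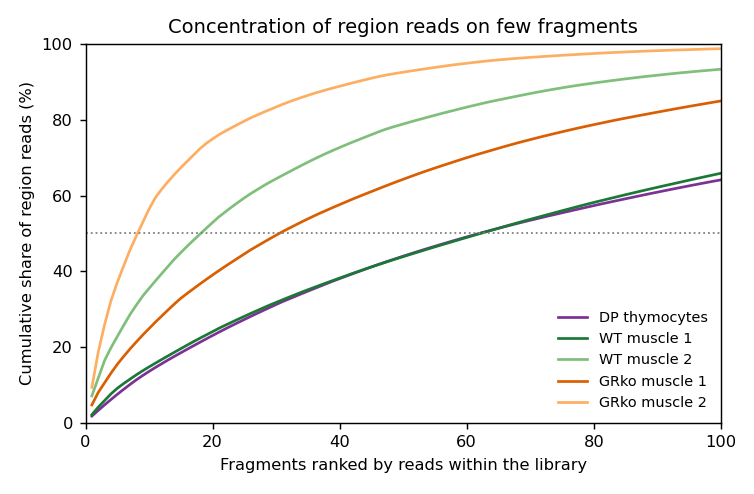
Cumulative percent of the region's reads held by the fragments of most reads, ranked within each library (first 100 ranks), 1 line per library, with a dotted line at 50%. GRko muscle replicate 2 reaches 50% with 9 fragments and WT muscle replicate 2 with 19, against 62 in DP thymocytes and 63 in WT muscle replicate 1.

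The 8 fragments with the highest mean share among the 87 covered in all 5 libraries show how far single fragments vary. The fragment at 102649005, in the peak bin 883 kb from the bait, had 7815 reads in thymocytes, 4230 and 1 in the WT pair and 2484 and 11513 in the GRko pair. The fragment at 102352199, in Gm36703, had 1166 reads in thymocytes, 1294 and 23751 in the WT pair and 1 and 4 in the GRko pair. For both fragments a muscle library stood at 4 reads or fewer while another held 11513 or more. The fragment at 102604512, in the pseudogene Gm47014, had 313 reads in thymocytes, 6162 and 9966 in the WT pair and 3 and 3 in the GRko pair. Like the fragment at 102352199, it had more reads in both WT libraries than in either GRko library, and both were singled out after their values were seen. The fragment at 102325990 was the most even, with 4400 reads in thymocytes, 5901 and 11258 in the WT pair and 2557 and 322 in the GRko pair. The other 4, at 102445431, 102653433, 102364681 and 102543707, each ranged from 22 reads or fewer in one muscle library to 5265 or more in another.

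Wider bins averaged over single fragments. The region held 10 bins of 50 kb, the first and last reaching slightly past its edges. By share of window reads DP thymocytes were below all 4 muscle libraries in 8 of the 10, against 31.1% of the 61 window bins. The exceptions were the last bins, 102650001 and 102700001, which hold most of the 40 kb segment, Cd180 and the edge of Mast4. By share of covered fragments thymocytes were below all 4 muscle libraries in 9 of 10 (42.6% of window bins) and above all 4 in the last (47.5%). That last bin took 2.09% of covered fragments in thymocytes and 1.69 to 2.00% in muscle. The widest gap by reads was in the bin from 102350001 to 102400000, with 1.19% in thymocytes, 3.27% and 5.66% in the WT pair and 3.14% and 3.35% in the GRko pair. All 4 muscle values there were well above the thymocyte value.

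**Figure D5:**
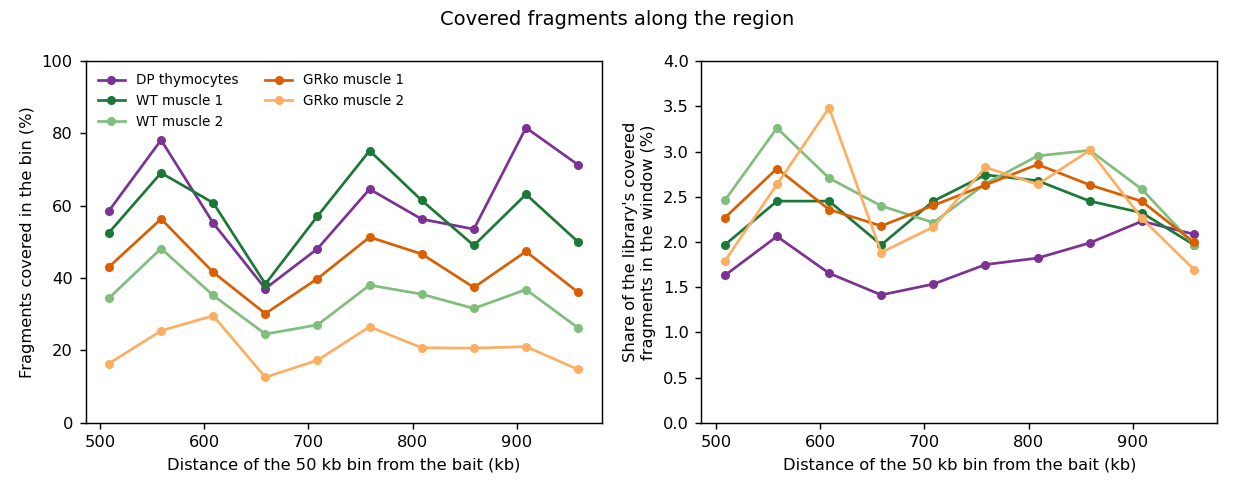
Percent of fragments covered in each 50 kb bin (left) and share of each library's covered window fragments that lie in the bin (right, percent), against distance from the bait in kb, 1 line per library. On the left the lines mostly follow depth, and on the right the thymocyte line lies below the 4 muscle lines in 9 of 10 bins and above them in the last.

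In edgeR's quasi-likelihood test of thymocytes against WT muscle, adjusted over the window by Benjamini-Hochberg, 1 of 10 bins of 50 kb passed 0.05, and 3.28% of the window's bins did. It was the bin from 102350001 to 102400000, which holds the Gm36703 start, with a log2 ratio of -1.90 ± 0.535 (SE) and an adjusted p of 0.0161. The call was lost with TMM normalization (edgeR adjusted p = 0.148), against the mean of all 4 muscle libraries (0.0682), and without WT replicate 2 (0.234), GRko replicate 1 (0.343) or GRko replicate 2 (0.346), and was kept without WT replicate 1 (0.00125), by DESeq2 (adjusted p = 0.0151) and with capped reads (edgeR, 0.0367). The log2 ratio lay between -2.25 and -1.46 under all settings run. Thymocyte ratios were below 0 in 9 of 10 bins (52.5% of the window's bins), with a median of -1.13 against -0.21 over the window. Counting covered fragments, 0 of 10 bins passed edgeR's adjusted threshold, 15.3% of the window's bins did, and 5, all lower in thymocytes, had an unadjusted p under 0.05 (13.6% of the window's bins were lower at that level). The 10 ratios had a median of -0.52, and those at 102350001, 102450001 and 102500001 had the smallest adjusted p, 0.0781 each by edgeR. When each library gave an equal number of fragments, 5 of 10 bins were called lower in thymocytes by this test, and 12.7% of the window's bins were. Against all 4 muscle libraries 4 of 10 were, and 10.2% of the window's bins. In the latter, the bin at 102350001 had a log2 ratio of -0.69 and an edgeR adjusted p of 0.0231. By DESeq2, covered fragments gave 0 calls in the region and 0 over the 59 window bins tested. Unadjusted, 0 of the region's bins had a DESeq2 p under 0.05, and 1 of the window's did.

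At 10 kb no bin of the region passed in this comparison (0 of 46 by edgeR, 0% of the window's bins). Unadjusted, 0 bins of the region had p under 0.05 by edgeR (1.41% of the window's bins) and 3 by DESeq2 (4.23%). After adjustment DESeq2 also made 0 calls in the region, and called 2.11% of the window's bins. Of the 46 ratios 40 were below 0, against 46.5% of the window's bins, and their median was -1.19 against 0.22. By share of window reads thymocytes were below both WT libraries in 30 bins (26.7% of window bins) and above both in 6 (41.7%). The bin at 102360001 had a log2 ratio of -2.08 ± 1.16 (SE) and that at 102350001 of -2.34 ± 1.38 (SE), both with an edgeR adjusted p of 0.990. At the other end, 102670001 in the 40 kb segment had a ratio of 1.55 ± 2.85 (SE) with the same adjusted p. Tests on simulated reads recovered 0% of 4-fold changes at 10 kb and 0% at 50 kb in this comparison, and 76.7% when covered fragments were counted, so the read-based tests could rarely have made a call. Simulated covered counts had no upper limit, whereas real ones cannot exceed the fragments in a bin, so the 76.7% does not carry over to the region.

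Between GRko and WT muscle no bin of the region passed the threshold at 10 kb, at 50 kb or by covered fragments. In simulated reads these tests recovered 0% of 4-fold changes at 10 kb and 1.67% at 50 kb, so a read-based call could rarely have been made. By edgeR 0 of 45 bins of 10 kb were called (0% of the window's bins), with 0 at an unadjusted p under 0.05 (1.48%). DESeq2 made 0 calls in the region (1.48% of the window's bins), with 4 at an unadjusted p under 0.05 (13.3% of the window's bins). GRko was above both WT libraries by read share in 5 of 46 bins (11% of window bins) and below both in 12 (17.3%). The bin at 102640001 had a log2 ratio of 1.33 ± 0.757 (SE) and that at 102650001 beside it of -1.56 ± 0.864 (SE), both with an edgeR adjusted p of 0.969. The bin at 102600001, with Gm47014, had a log2 ratio of -2.62 ± 1.49 (SE) and the same adjusted p. At 50 kb 0 of 10 bins were called by edgeR (0% of the window's bins) and 1 was lower at an unadjusted p under 0.05 (1.64%). This was the bin from 102650001 to 102700000, with 2.03% and 4.04% of window reads in the WT pair and 1.95% and 0.404% in the GRko pair, a log2 ratio of -1.37 ± 0.537 (SE) and an edgeR adjusted p of 0.367. Its covered-fragment ratio was -0.03 ± 0.215 (SE). Counting covered fragments, 0 of 10 bins were called by edgeR, with 0 at an unadjusted p under 0.05, and the log2 ratios lay between -0.06 and 0.13. In simulated data the covered-fragment test recovered 25% of the 2-fold and 68.3% of the 4-fold changes. The simulated counts were not limited by the number of fragments in a bin, as real ones are. In WT replicate 1, 38.4 to 75.2% of the fragments in these bins were already covered, which limits the room for a rise. The recovery therefore does not tell how large a change this test would have called in the region.

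The 19 fragments of Cd180 (102693547 to 102706631, 13085 bp) held 9080 reads in thymocytes, 3221 and 467 in the WT pair and 2799 and 149 in the GRko pair. As shares of window reads these were 0.185% in thymocytes, 0.111% and 0.0349% in the WT pair and 0.165% and 0.0235% in the GRko pair. The thymocyte share of reads was the highest and the genotypes overlapped, with a difference of 0.0209 points (exact permutation p = 1). By share of covered fragments thymocytes were not the highest. Cd180 then took 0.360% in thymocytes, 0.387% and 0.431% in the WT pair and 0.408% and 0.188% in the GRko pair. The 41 bp fragment over the start site had 25 reads in thymocytes, 23 in GRko replicate 1 and 0 in the other libraries. Within 2 kb of the start the reads were 4456 in thymocytes, 2439 and 114 in the WT pair and 5811 and 1 in the GRko pair. GRko replicate 1 was highest there and GRko replicate 2 lowest, so the spread within the genotype spanned all other values. In edgeR's test of 10 kb bins, the bins at 102690001 and 102700001, over Cd180, had log2 ratios of 1.04 ± 3.28 and 1.48 ± 3.51 (SE) in thymocytes over WT muscle (adjusted p = 0.990) and of 1.20 ± 2.76 and 0.89 ± 2.91 (SE) in GRko over WT (adjusted p = 0.969).

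The reads given next for noncoding genes, like those of single fragments above, are raw counts and follow the depth of each library. Gm41046, in the 40 kb segment 895 to 900 kb from the bait, had 15047 reads in thymocytes, 9157 and 4535 in the WT pair and 5560 and 217 in the GRko pair. As a share of window reads the gene took 0.307% in thymocytes, inside the muscle range. The shares were 0.317% and 0.339% in the WT pair and 0.327% and 0.0342% in the GRko pair. Around its start, within 2 kb, there were 10779 reads in thymocytes, 4989 and 4 in the WT pair and 495 and 7 in the GRko pair. Gm36703 had 3542 reads in thymocytes, 13120 and 24620 in the WT pair and 15660 and 75 in the GRko pair. Its overlapping neighbour Gm46397 had 6276, 12617, 3796, 14672 and 1316 in the same order of libraries. Within 2 kb of the Gm36703 start there were 3410 reads in thymocytes, 4080 and 24070 in the WT pair and 11573 and 5 in the GRko pair. The fragment inside the Gm36703 promoter printed above had 17 reads in WT replicate 1 and 0 elsewhere, and that in the Gm46397 promoter 682 in thymocytes, 103 in GRko replicate 1 and 0 elsewhere. Neither of them holds a start site. The fragment at 102351477, which holds both starts, had 65 reads in thymocytes, 113 in WT replicate 1 and 0 elsewhere.

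Gm29870, with 4 fragments, had 599 reads in thymocytes, 3720 and 6662 in the WT pair and 0 and 0 in the GRko pair. Gm47014, with 2 fragments, had 1477 in thymocytes, 6166 and 13695 in the WT pair and 5 and 492 in the GRko pair. In these genes both WT libraries were above both GRko libraries, each with an exact permutation p = 0.333, the smallest possible. They rest on 2 to 4 fragments. Of all 10 kb window bins, 17.3% had both GRko libraries below both WT libraries by read share. Those bins hold 14 to 44 fragments each in the region, and the share among stretches of 2 to 4 fragments was not taken. The longest gene, Gm29927 (118 fragments), had 29725 reads in thymocytes, 48033 and 13464 in the WT pair and 19638 and 20764 in the GRko pair, and Gm41045 had 9397, 8539, 7293, 11486 and 72. Genes as a whole took 13.7% of the region's reads in thymocytes, 17.4% and 22.2% in the WT pair and 20.1% and 18.7% in the GRko pair, beside 17.8% of its fragments. The reads thus lay in intergenic DNA about in proportion to its share of fragments.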

How the data were processed

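The 5 libraries were made by 4C-seq with DpnII and Csp6I. Each deposited table lists unnormalized counts of reads for the DpnII fragments of chromosome 13. The submitters' processing notes name bcl2fastq, Bowtie 1.0.0 and mm10; how reads were assigned to fragments is unstated in the sources used. A fragment's position is the midpoint between the starts of consecutive GATC sites: all 311 GATC pairs inside chromosome 13 promoters of the RefSeq table had their midpoint among the deposited positions. Very short fragments and short reads map less often to 1 place, which can lower counts there.

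Shares use the reads or covered fragments within 1.5 Mb of the bait without the nearest 10 kb. Bins of 10 and 50 kb over this window were tested with edgeR 4.0.16 (R 4.3.3, quasi-likelihood) with window totals as library sizes and Benjamini-Hochberg adjustment over all bins tested, where at least 2 libraries had 10 reads, or 3 covered fragments. GRko was compared with WT in the 4 muscle libraries, and DP thymocytes with WT in a fit of all 5, which assumes that the single thymocyte library varies like muscle. The 46 bins of 10 kb hold 1172 of the 1203 fragments. Ratios are log2. Expected levels were fitted by isotonic regression (scikit-learn 1.9.0), falling with distance, on the region's side. For shares an exact permutation test, two-sided, was used.

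Bins were named by this rule: called bins, or otherwise the 2 of smallest p in each direction, the bins over Cd180, and the 5 of highest mean share; fragments, the 8 of highest mean share among those covered in all libraries; and every annotated gene of the region. The members, lists and rules were chosen with earlier results of these data known. Alternatives were TMM, DESeq2 1.42.0, no filter, shifted bins, 25 kb left out, all of chromosome 13 as denominator, a minimum of 10 reads, capped fragments, each replicate left out and the replicate number as a block. An equal number of fragments per library and capped reads in 50 kb bins were added after seeing the data. Tests were tested on simulated counts (20 data sets each, 30 of 300 or 6 of 61 bins changed).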

Additional observations from a re-analysis of the deposited data

How the results depend on the processing

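Of 15 results, 8 kept their direction and their side of the threshold, or a count within 1.5 times, under every alternative run, among them the shares of reads and covered fragments in thymocytes against WT muscle, the read share of GRko against WT and the comparison with the interval on the other side of the bait. The others were counts of 0 called bins. By reads these counts could rarely have moved, as 0 to 1.67% of 4-fold changes were recovered in simulated reads. The GRko read share kept its direction, but not the separation of the genotypes. With all of chromosome 13 as denominator GRko replicate 1 (12.86%) lay above WT replicate 1 (12.45%). The 29 nt pair then differed by 0.407 points, and the exact permutation p between genotypes was 0.667. The difference in covered-fragment share between GRko and WT turned to 0.0560 points with 25 kb left out and to 0.674 with all of chromosome 13 as denominator, and ranged from -1.32 to 1.06 with 1 replicate left out. The Cd180 difference of 0.0209 points turned to -0.111 by covered fragments and ranged from -0.0497 to 0.0915 with 1 replicate left out. The thymocyte call at 50 kb fell from 1 to 0 with TMM and against all 4 muscle libraries, and to between 0 and 1 with 1 replicate left out. For covered fragments the calls, all lower in thymocytes, rose from 0 to 4 against all 4 muscle libraries (10.2% of the window's bins were lower) and to 5 with equal fragment numbers (12.7%). They stayed at 0 by DESeq2, which called 0 of the window's 59 bins. With equal numbers the common dispersion, edgeR's estimate of spread between libraries, was 9.77e-05, against 0.0161 in the main fit. This common dispersion thus allowed for almost no spread beyond counting error around the single thymocyte library. The quasi-likelihood test fits a further spread per bin. Bins above the expected level went from 8 to 3 in thymocytes and from 4 to 0 in WT at 3 times, from 4 to 8 in WT and 3 to 5 in GRko with both sides fitted together, and from 4 to 2 in WT with capped reads. The cause of these changes was not tested. Single GRko over WT log2 ratios that changed sign were, by reads, 102550001 (-0.055 capped, -0.45 to 0.68 over all settings, lowest edgeR or DESeq2 adjusted p 0.601) and 102560001 at 10 kb (-0.51 to 2.15, lowest 0.364). By covered fragments, each with an adjusted p of 0.897 or more, they were 102350001 (-0.28 with equal fragment numbers, -0.12 to 0.44 with 1 replicate left out), 102600001 (-0.093 and -0.12 to 0.18 in the same order), 102700001 (0.045 by DESeq2, 0.17 with equal numbers, -0.21 to 0.020 with 1 replicate left out) and 102450001 (0.013 with TMM, 0.10 by DESeq2, -0.12 to 0.066 with 1 replicate left out).

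Replicate number goes with read length in both genotypes, 29 or 23 nt, and the labels name no shared animal or batch. The numbers were not taken to pair the samples: with 2 pairs, deviations of same-numbered muscle libraries correlated at -0.00693 over 300 bins of 10 kb and 0.104 over 61 bins of 50 kb. The common dispersion was nonetheless lower with replicate number as a block, 1.38 against 1.79 at 10 kb and 0.571 against 0.697 at 50 kb. An effect of read length was not tested. With the replicate block edgeR called 0 bins of the region between genotypes at 10 kb, 50 kb and by covered fragments, and the read share differed by -3.44 points (p = 0.5, exact, the smallest 2 pairs allow). The covered-fragment share differed by -0.130 points and Cd180 by 0.0209 with this block. In the 23 nt libraries 9 and 19 fragments held 50% of the reads in the region.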
